A study of Homo sapiens with 6 samples.

Results

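A set of 35 genes used to recognise plasmacytoid dendritic cells, some of them shared with B cells, T cells or other cells, is described here in GEN2.2, an established human line grown from a plasmacytoid dendritic cell leukaemia. The members were fixed by name, and each was read from the brightest of its probes, the one with the highest mean signal over all arrays. Of the 35 genes, 33 had a probe among the 20041 genes with a symbol on the array, with 46 probes between them. LILRB4, an inhibitory receptor, and SCT, the secretin gene, had no probe named for them in the platform table and were not analysed here. One group of 3 arrays held RNA of cells treated for 2 h with 1 µM ODN2006, a CpG oligonucleotide that activates Toll-like receptor 9. The other 3 arrays held RNA of untreated cells in log-phase culture, and no control oligonucleotide was among the samples. All arrays measured the same leukaemic line, and the labels do not say whether replicates were separate cultures, so that p-values measure nothing beyond the scatter of these 6 RNA samples, and that scatter may be technical.

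Plasmacytoid dendritic cells sense nucleic acids in endosomes through Toll-like receptors 7 and 9 and answer with type I interferon. Their programme is held in place by the E protein TCF4, which binds E-box sequences, together with SPIB, RUNX2, BCL11A and ZEB2, and it is opposed by ID2, an inhibitor of E proteins. The programme includes surface receptors, an enlarged secretory apparatus and a set of endosomal and lipid-handling proteins.

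A probe counted as detected on an array where its deposited detection p-value lay under 0.01, which 13454 to 15447 of the 47218 probes did, depending on the array. Signals are given below as log2 intensity after joint background correction and quantile normalization. On this scale the lowest detected signal lay between 5.18 and 5.50, and the highest signal was 14.44. Over the 13816 probes tested, the correlation between arrays within a group was 0.983 to 0.991. The number of arrays, 3 per group, limits the precision of every value. In these bulk samples fewer cells of a kind and less RNA per cell cannot be told apart.

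Of the 33 identity genes with a probe, 25 were detected on all 3 ODN2006 arrays, and the same count, 25, was detected on all 3 untreated arrays (75.8% of 33, beside 42.4% of all genes with a symbol). These 25 were also the members that entered the test. Of the remaining 8 genes, PTCRA, BLNK, SERPINF1, ASIP and DNASE1L3 were detected on no array, and LILRA4, CUX2 and SMPD3 on 1 ODN2006 array each. In untreated cells 12 of the 33 genes had a signal among the top 10% of genes and 19 among the top 25%, and the median position was percentile 81.7. A percentile ranks the signal of a probe and not the abundance of its transcript, because probes differ in how well they hybridise.

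**Figure D1:**
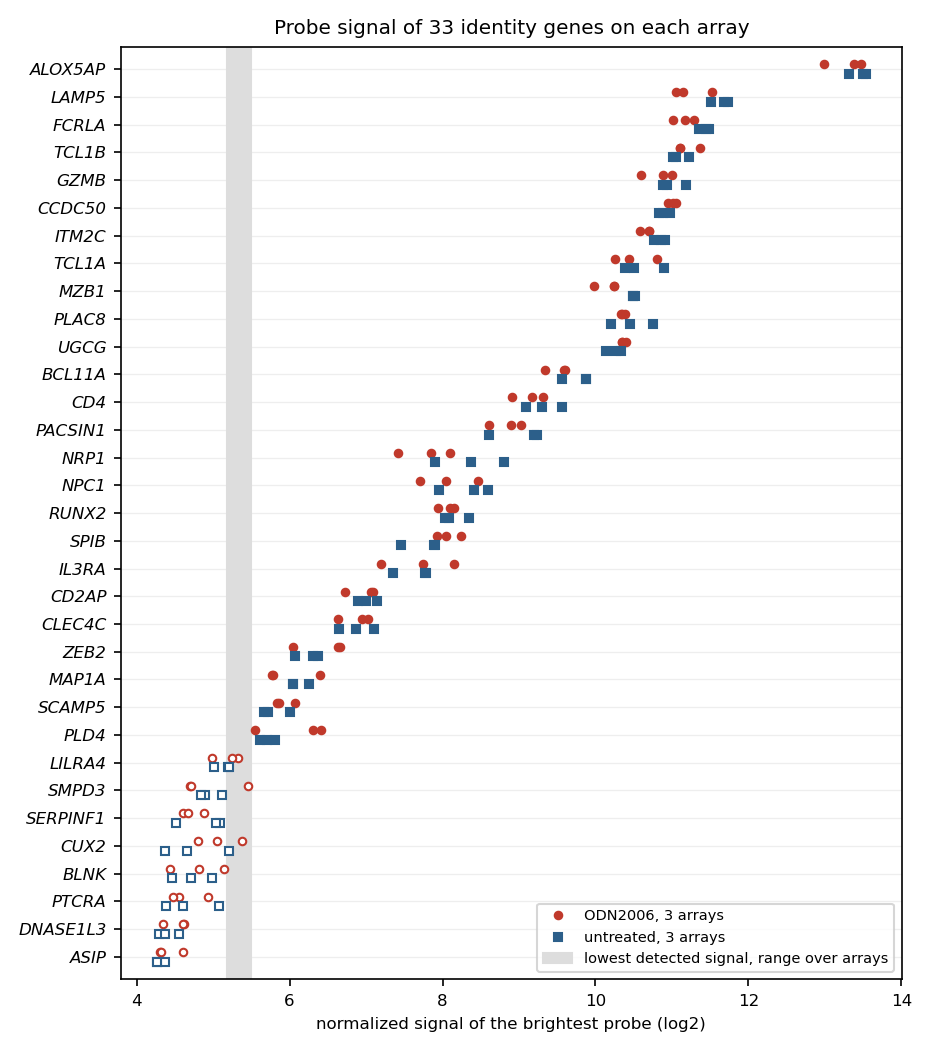
Normalized log2 signal (horizontal axis) of the brightest probe of each of 33 identity genes (vertical axis), ordered by the untreated mean. Circles are the 3 ODN2006 arrays and squares the 3 untreated arrays, open where a gene was not tested, and the grey band spans the lowest detected signals of the arrays (5.18 to 5.50); 25 genes lie to the right of the band and 8 at or below it.

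None of the 25 tested identity genes rose and none fell after ODN2006 at an adjusted p under 0.05 (limma with Benjamini-Hochberg adjustment over all tested probes). Over all 8703 genes tested, 3.41% rose and 1.82% fell, or 5.23% in all. At an unadjusted p under 0.05 in the same limma fit 3 members differed, NRP1, LAMP5 and MZB1, all lower after ODN2006, while 15.2% of all tested genes reached that level. The median log2 difference, ODN2006 minus untreated, was -0.11 over the 25 members and -0.05 over all tested genes. For 24 of the 25 the difference was smaller than 0.5 in size, as it was for 91.7% of all tested genes. The 95% interval of the difference lay within 1 log2 unit of 0 for the same number, 24. It did so for 8227 of the 8703 tested genes. The interval of NRP1 reached -1.08. The groups did not overlap for 2 members that were higher after ODN2006, SPIB and UGCG, and for 3 that were lower, FCRLA, MZB1 and ITM2C. Among all tested genes 8.48% were higher and 12.4% lower without overlap. With the replicate number as a block, 1 member fell, NRP1, and none rose, beside 4.11% of all tested genes that fell and 4.65% that rose in that fit. A difference that did not pass is not thereby shown to be absent.

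**Figure D2:**
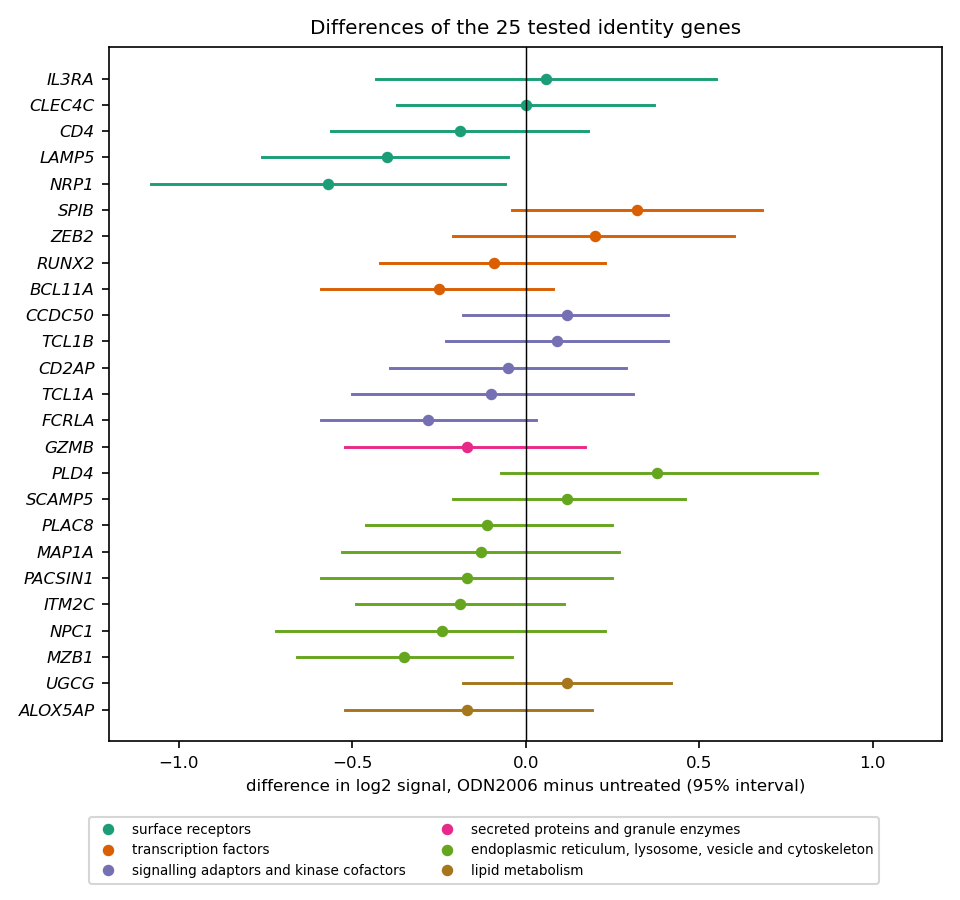
Difference in log2 signal, ODN2006 minus untreated (horizontal axis), with its 95% interval from the limma fit, for the 25 tested identity genes (vertical axis), coloured by role. NRP1 has the lowest difference (-0.57) and PLD4 the highest (0.38), and no gene passed the adjusted threshold.

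The stretch of 250 bases before the annotated start is shown for 5 of these genes, picked by hand. They are CLEC4C, the defining surface marker, and the neighbours TCL1A and TCL1B, both with bright signals. The others are MZB1, the member with a probe that fell, and PTCRA, which was not detected. The sequences are those of RefSeq on GRCh38.p14, in the direction of transcription, with every E-box (CANNTG, the same on both strands) in capitals.
CLEC4C: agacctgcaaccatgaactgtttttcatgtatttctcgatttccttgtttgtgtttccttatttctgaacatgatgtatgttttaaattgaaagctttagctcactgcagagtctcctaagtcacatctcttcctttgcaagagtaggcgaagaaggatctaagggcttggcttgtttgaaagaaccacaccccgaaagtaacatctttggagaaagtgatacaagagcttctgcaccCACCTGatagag
TCL1A: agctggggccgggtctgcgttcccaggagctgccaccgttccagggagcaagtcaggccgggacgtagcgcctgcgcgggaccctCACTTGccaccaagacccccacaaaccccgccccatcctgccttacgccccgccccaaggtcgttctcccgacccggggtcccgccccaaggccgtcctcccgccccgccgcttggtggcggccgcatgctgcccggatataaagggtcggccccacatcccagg
TCL1B: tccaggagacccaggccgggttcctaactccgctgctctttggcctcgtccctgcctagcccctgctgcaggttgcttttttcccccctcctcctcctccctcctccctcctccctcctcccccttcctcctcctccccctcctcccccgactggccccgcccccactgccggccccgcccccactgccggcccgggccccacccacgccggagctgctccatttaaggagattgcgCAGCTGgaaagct
MZB1: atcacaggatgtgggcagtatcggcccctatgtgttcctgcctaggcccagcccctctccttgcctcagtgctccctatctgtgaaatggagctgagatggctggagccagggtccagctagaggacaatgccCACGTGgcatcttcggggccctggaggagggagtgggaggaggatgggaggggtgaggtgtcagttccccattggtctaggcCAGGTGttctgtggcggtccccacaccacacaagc
PTCRA: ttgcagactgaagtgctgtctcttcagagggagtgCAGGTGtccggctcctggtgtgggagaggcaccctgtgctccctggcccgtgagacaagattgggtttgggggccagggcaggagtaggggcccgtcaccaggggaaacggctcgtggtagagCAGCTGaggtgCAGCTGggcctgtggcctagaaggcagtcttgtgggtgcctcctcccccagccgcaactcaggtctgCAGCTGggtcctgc
They lie at chr12:7747376-7747625 (minus strand), chr14:95714126-95714375 (minus strand), chr14:95686176-95686425 (plus strand), chr5:139389914-139390163 (minus strand) and chr6:42915803-42916052 (plus strand). CLEC4C, TCL1A and TCL1B each held 1 E-box in this stretch, MZB1 held 2 and PTCRA 4. Whether the number of E-boxes goes with signal was not tested. CLEC4C and TCL1A differed in base composition, with 40.8% and 71.6% G or C. Windows were found for 28 of the 35 genes, 39 windows in all, of which 26 held at least 1 E-box (66.7%, beside 61.8% of all 35116 windows in the table). The E-box form CAGGTG, searched on both strands and contained in the general form, was found in 9 of the 39 (23.1%, beside 17.5%), and so was CAGCTG (beside 4911 of the 35116 windows). GAGGAA, also searched on both strands, a core of the sites that ETS factors such as SPIB bind, was found in 15 (38.5%, beside 23.6%). These counts describe letters in a window, and some genes have several windows.

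The surface receptor group, in which LAMP5 was placed, held 8 members, of which 7 had a probe, 5 were tested and none passed the test. CLEC4C, also known as BDCA-2 and a C-type lectin that restrains interferon production, had log2 signals of 6.63, 7.03 and 6.95 on ODN2006 arrays and 6.64, 6.87 and 7.10 on untreated arrays. The groups overlapped over nearly their whole range, and the difference was 0.00 with a 95% interval from -0.37 to 0.37 (adjusted p = 0.999, limma). A second CLEC4C probe differed by the same amount to 2 decimals, with an interval from -0.35 to 0.35. IL3RA, the interleukin 3 receptor chain known as CD123, had 7.20, 7.75 and 8.15 on ODN2006 arrays and 7.35, 7.77 and 7.79 on untreated arrays. Its highest and its lowest value both came from ODN2006 arrays, and the difference was 0.06 ± 0.22 (SE, limma adjusted p = 0.963). In untreated cells the signals of CLEC4C and IL3RA stood at percentiles 70.8 and 77.4 of all genes.

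NRP1, the semaphorin and VEGF co-receptor known as BDCA-4, had the largest difference of the 25. Its signals were 7.42, 8.10 and 7.85 on ODN2006 arrays and 7.90, 8.37 and 8.81 on untreated arrays. The lowest untreated value lay below the highest ODN2006 value, so the groups overlapped, while each ODN2006 array lay below the untreated array of the same number, by 0.48, 0.27 and 0.96. The difference was -0.57 ± 0.23 (SE, 0.67-fold) and did not pass in the unblocked limma fit (adjusted p = 0.259), whereas with the replicate block it fell (SE 0.15, limma adjusted p = 0.044). That call was lost in 4 of the 6 blocked fits that leave out 1 array, an alternative chosen after the data were seen: without ODN2006 replicate 1 or 3 (adjusted p = 0.0812 and 0.206) and without untreated replicate 1 or 3 (0.0605 and 0.211). In unblocked fits without 1 array the difference of NRP1 ran from -0.80 without untreated replicate 1 to -0.35 without untreated replicate 3 and did not pass. A second NRP1 probe differed by -0.25 ± 0.16 (SE) and passed in neither fit (limma adjusted p = 0.567, and 0.383 with the block). The NRP1 probes thus lay on the same side of 0 and differed in size and in their blocked call.

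LAMP5, a lysosome-associated protein that in human plasmacytoid dendritic cells directs Toll-like receptor 9 to late endosomes, was grouped here with the surface receptors. It was the brightest gene of that group, at percentile 97.9. It had 11.05, 11.52 and 11.14 on ODN2006 arrays and 11.51, 11.73 and 11.68 on untreated arrays. The highest ODN2006 value just passed the lowest untreated one, and the difference of -0.40 ± 0.16 (SE) did not pass (limma adjusted p = 0.249). CD4, the co-receptor that these cells share with helper T cells, averaged 9.13 ± 0.21 on ODN2006 arrays and 9.32 ± 0.24 on untreated arrays (SD, n = 3 each), a difference smaller than either spread. LILRA4, the receptor known as ILT7 that binds BST2, had signals of 4.98, 5.33 and 5.25 on ODN2006 arrays and 5.01, 5.20 and 5.21 on untreated arrays. It sat at the edge of detection, with detection p-values of 0.0584, 0.0026 and 0.0117 on ODN2006 arrays and 0.0481, 0.013 and 0.0104 on untreated arrays. At a detection threshold of 0.05 it is the member that raises the count detected in untreated cells to 26. PTCRA, the pre-T cell receptor alpha gene that marks human plasmacytoid dendritic cells, had 4.56, 4.47 and 4.93 on ODN2006 arrays and 4.61, 4.38 and 5.08 on untreated arrays, all undetected. A second PTCRA probe was undetected as well.

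Of 5 transcription factor genes, 4 were tested, and none passed. SPIB, an ETS factor needed for the development of these cells, had 8.05, 7.93 and 8.24 on ODN2006 arrays and 7.90, 7.46 and 7.89 on untreated arrays. All ODN2006 values lay above all untreated ones, with little room between the nearest, and the difference of 0.32 ± 0.17 (SE, 1.25-fold) did not pass (limma adjusted p = 0.412). BCL11A, a zinc finger factor that acts with TCF4, was the brightest of the group at percentile 92.1, with 9.60, 9.59 and 9.34 on ODN2006 arrays and 9.87, 9.87 and 9.56 on untreated arrays. Its groups overlapped through the lowest untreated array, and the difference was -0.25 ± 0.15 (SE, limma adjusted p = 0.519). Of its other probes, one differed by -0.15 without overlap and the other by 0.04, and neither passed. RUNX2, which promotes the maturation and exit from bone marrow of these cells in mice, had 8.10, 8.15 and 7.94 on ODN2006 arrays and 8.08, 8.03 and 8.35 on untreated arrays. Its groups overlapped, the difference was -0.09 with an interval from -0.42 to 0.23, and a dimmer RUNX2 probe was detected on 1 ODN2006 and 2 untreated arrays only. ZEB2, a repressor that in mice keeps ID2 in check, averaged 6.44 ± 0.35 on ODN2006 arrays and 6.25 ± 0.16 on untreated arrays (SD, n = 3 each), a difference within the larger spread. CUX2, a homeobox factor gene, had 4.80, 5.38 and 5.05 on ODN2006 arrays and 4.37, 5.21 and 4.66 on untreated arrays, and was detected on ODN2006 array 2 only. Array 2 was the highest of both groups for CUX2.

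The adaptor and cofactor genes included some of the brightest members, and 5 of 6 were tested without a call. TCL1A, a coactivator of the kinase AKT and a leukaemia gene of lymphoid cells, had 10.80, 10.25 and 10.44 on ODN2006 arrays and 10.90, 10.51 and 10.38 on untreated arrays. Array 1 was the highest in both groups, and the difference was -0.10 ± 0.19 (SE, limma adjusted p = 0.913). TCL1B, its neighbour on chromosome 14 and a related AKT coactivator, averaged 11.19 ± 0.16 on ODN2006 arrays and 11.10 ± 0.11 on untreated arrays (SD, n = 3 each), with a difference of 0.09 and an interval from -0.23 to 0.41. FCRLA, an Fc receptor-like protein of the endoplasmic reticulum best known from B cells, was the brightest of this group at percentile 97.6. It had 11.01, 11.29 and 11.17 on ODN2006 arrays and 11.45, 11.49 and 11.36 on untreated arrays. All ODN2006 values of FCRLA were below the untreated ones, and the difference of -0.28 ± 0.14 (SE, 0.82-fold) did not pass (limma adjusted p = 0.408). CD2AP, an adaptor between receptors and actin, averaged 6.96 ± 0.20 on ODN2006 arrays and 7.01 ± 0.12 on untreated arrays (SD, n = 3 each). BLNK, the adaptor of B cell receptor signalling, was undetected, with means of 4.80 on ODN2006 and 4.71 on untreated arrays.

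CCDC50, a ubiquitin-binding protein, had 4 probes, of which 2 were tested, and these differed in size. The brightest had 11.06, 11.02 and 10.95 on ODN2006 arrays and 10.97, 10.89 and 10.83 on untreated arrays. One untreated value lay above the lowest ODN2006 value, and the difference was 0.12 ± 0.14 (SE, limma adjusted p = 0.817). The second probe had 9.12, 9.21 and 9.19 on ODN2006 arrays and 8.77, 8.78 and 8.57 on untreated arrays. Here every ODN2006 array lay above every untreated array, with a difference of 0.47 ± 0.14 (SE, 1.38-fold). It missed the threshold in the unblocked limma fit (adjusted p = 0.0929) and rose with the replicate block (limma adjusted p = 0.0395), and it also passed without background correction (adjusted p = 0.0275). The blocked call was lost without any 1 of the 6 arrays (adjusted p between 0.0531 and 0.189). Which transcripts of CCDC50 the probes share was not tested.

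Among genes of secreted proteins and granule enzymes the line showed the fewest members, with 1 of the 4 that had a probe detected. That gene was GZMB, the serine protease granzyme B that plasmacytoid dendritic cells carry without perforin, at percentile 96.6. It had 10.60, 10.89 and 11 on ODN2006 arrays and 10.93, 10.89 and 11.18 on untreated arrays. The groups overlapped, and the difference was -0.17 with an interval from -0.52 to 0.17 (limma adjusted p = 0.735). PRF1, the perforin gene, was undetected on all 6 arrays. SERPINF1, the gene of pigment epithelium-derived factor, averaged 4.72 on ODN2006 and 4.88 on untreated arrays, ASIP, the agouti signalling protein gene, 4.41 and 4.30, and DNASE1L3, a secreted DNase, 4.52 and 4.40. On every array these genes stayed below the lowest signal that any array detected. The signal of a silent gene and that of a weak one cannot be told apart there.

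All 8 members of the secretory, endosomal and cytoskeletal group were detected and tested. ITM2C, a transmembrane protein with a BRICHOS domain, was the brightest at percentile 96.2, with 10.58, 10.70 and 10.70 on ODN2006 arrays and 10.77, 10.91 and 10.86 on untreated arrays. The ODN2006 values of this ITM2C probe all lay below the untreated ones, and the difference of -0.19 ± 0.14 (SE, 0.88-fold) did not pass (limma adjusted p = 0.624). At a second ITM2C probe, with an untreated mean of 10.82, the groups overlapped. It differed by -0.16 and did not pass (limma adjusted p = 0.74). PLD4, an endolysosomal exonuclease that degrades single-stranded nucleic acids, had 6.30, 5.55 and 6.41 on ODN2006 arrays and 5.70, 5.81 and 5.61 on untreated arrays. ODN2006 arrays 1 and 3 were above all untreated arrays and array 2 was below them, so that the difference of 0.38 ± 0.21 (SE) did not pass (limma adjusted p = 0.453). With the replicate block and without ODN2006 replicate 2, an alternative chosen after the data were seen, PLD4 differed by 0.70 (limma adjusted p = 0.025), and over such fits without 1 array its adjusted p ran from 0.025 to 0.72. NPC1, the lysosomal cholesterol transporter, averaged 8.07 ± 0.38 on ODN2006 arrays and 8.32 ± 0.33 on untreated arrays, and PLAC8, a cysteine-rich protein, 10.36 ± 0.03 and 10.47 ± 0.27 (SD, n = 3 each). PACSIN1, which bends membranes in endocytosis and is linked to the interferon response of these cells, had 8.84 ± 0.22 on ODN2006 and 9.02 ± 0.35 on untreated arrays (SD, n = 3 each). The differences of NPC1, PLAC8 and PACSIN1 were within the larger of their spreads. SCAMP5, a secretory carrier protein, and MAP1A, a microtubule protein, differed by 0.12 and -0.13, and both had dim signals, at percentiles 60.9 and 63.8.

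Of 33 tested probes of identity genes 1 passed the test, beside 5.23% of all tested genes, each read from its brightest probe. MZB1, an endoplasmic reticulum cofactor for the folding of secreted proteins, was the gene of that probe. Its brightest probe had 9.98, 10.24 and 10.24 on ODN2006 arrays and 10.49, 10.49 and 10.52 on untreated arrays. The groups did not overlap, and the difference was -0.35 ± 0.14 (SE, 0.79-fold), which did not pass (limma adjusted p = 0.254, and 0.11 with the replicate block). Its second probe had 7.80, 8.40 and 7.90 on ODN2006 arrays and 8.78, 8.94 and 8.74 on untreated arrays. Here too every ODN2006 array lay below every untreated one, and the probe fell by 0.79 on the log2 scale (SE 0.17, 0.58-fold, limma adjusted p = 0.0203). With the replicate block the fall of the second probe passed as well (adjusted p = 0.00442). The call was lost without ODN2006 replicate 1 or 3 or untreated replicate 2, with adjusted p of 0.0838, 0.079 and 0.11, and in the fit with no filter on dim probes (0.117). With the mean of both probes as the value of the gene, MZB1 fell by 0.57 (limma adjusted p = 0.0467). The rule for members reads the brightest probe, by which MZB1 is not among the genes that changed.

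**Figure D3:**
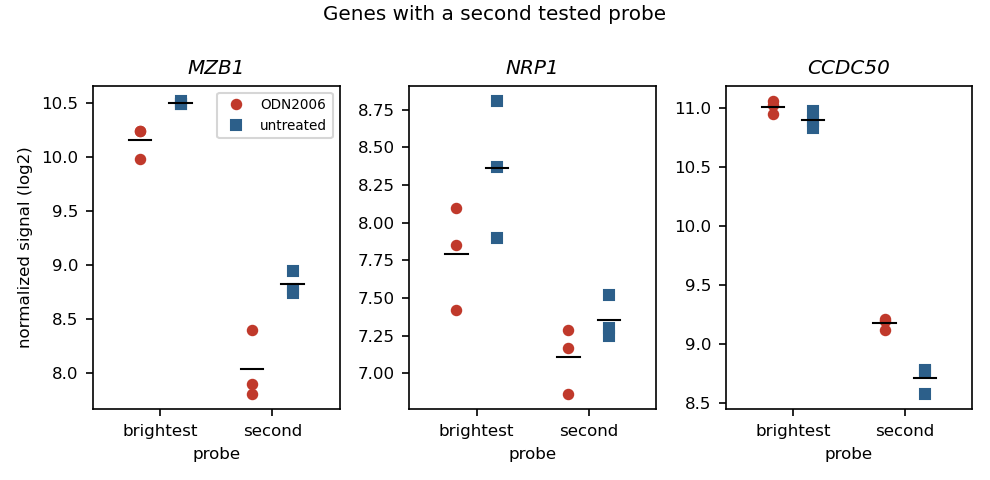
Normalized log2 signal (vertical axis, a scale of its own in each panel) of the brightest and the second tested probe (horizontal axis) of MZB1, NRP1 and CCDC50, with ODN2006 arrays as circles left of the untreated arrays as squares and bars at the means (n = 3 each). The groups are apart at both MZB1 probes and at the second CCDC50 probe, and overlap at both NRP1 probes and at the brightest CCDC50 probe.

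The lipid genes held the brightest member of all. ALOX5AP, which presents arachidonic acid to the lipoxygenase that starts leukotriene synthesis, had 12.99, 13.47 and 13.38 on ODN2006 arrays and 13.31, 13.50 and 13.54 on untreated arrays. It stood at percentile 99.5, about 1 unit below the highest signal of the array, so that a rise could be understated. Its groups overlapped and the difference was -0.17 with an interval from -0.52 to 0.19 (limma adjusted p = 0.754). UGCG, the glucosylceramide synthase gene, had 10.35, 10.40 and 10.35 on ODN2006 arrays and 10.27, 10.33 and 10.14 on untreated arrays. The ODN2006 values of UGCG all lay above the untreated ones, and the difference of 0.12 ± 0.14 (SE, 1.09-fold) did not pass (limma adjusted p = 0.804). SMPD3, a neutral sphingomyelinase gene, had 4.70, 4.71 and 5.46 on ODN2006 arrays and 4.89, 4.84 and 5.12 on untreated arrays, and was detected on ODN2006 array 3 only.

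A list of 40 other genes of the plasmacytoid dendritic cell programme, none of them a member, gives the setting. The list includes ID2, which opposes the programme and is counted in it below. Of these, 38 had a probe and 31 were tested, of which 2 rose, 2 fell and 27 did not pass (median -0.07, with 3.41% of all tested genes rising and 1.82% falling). IRF4, a lymphoid interferon regulatory factor, had 7.69, 7.95 and 8.08 on ODN2006 arrays and 7.18, 6.80 and 6.93 on untreated arrays, and rose by 0.93 on the log2 scale (1.91-fold, limma adjusted p = 0.00422), or by 0.57 without background correction. ID2 had 11.29, 11.14 and 11.09 on ODN2006 arrays and 10.68, 10.58 and 10.60 on untreated arrays. It rose (0.56 ± 0.14 SE, 1.47-fold, limma adjusted p = 0.0385), without overlap between the groups. The call of ID2 was lost without any 1 of the 6 arrays, with adjusted p between 0.0774 and 0.17 on those fits, and held with the replicate block on all arrays (adjusted p = 0.0146). With the block it was lost again without replicate 2 of either group, ODN2006 replicate 1 or untreated replicate 3, with adjusted p between 0.0502 and 0.0662 in those fits. With no filter on dim probes ID2 missed the threshold as well (adjusted p = 0.051). TCF4, the E protein itself, had 10.19, 10.23 and 9.64 on ODN2006 arrays and 10.12, 10.16 and 9.52 on untreated arrays. Array 3 was the lowest in both groups, and the difference was 0.09 with an interval from -0.37 to 0.54.

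CCR2, a chemokine receptor gene, fell, with 4.93, 5.54 and 5.08 on ODN2006 arrays and 5.96, 6.27 and 6.59 on untreated arrays (limma adjusted p = 0.00638). It was detected on 1 ODN2006 array, so the size of the fall, 1.09 on the log2 scale, reaches into background. The call of CCR2 was lost with no filter on dim probes (adjusted p = 0.0825) and without background correction, where its difference was -0.37 (0.0618). DERL3, an endoplasmic reticulum protein of the degradation pathway, fell as well, with 5.33, 6.04 and 6.17 on ODN2006 arrays and 6.75, 6.80 and 7.01 on untreated arrays (limma adjusted p = 0.014), and was detected on 2 ODN2006 arrays. Its log2 difference was -1.0, and -0.42 without background correction. The call of DERL3 was lost with no such filter (adjusted p = 0.133) and in the fit lacking untreated replicate 3 (0.059). With the block RNASE6, a ribonuclease gene, also fell (0.74-fold, limma adjusted p = 0.0431, against 0.126 without it), a call lost in the blocked fits without any 1 of the 6 arrays (0.119 to 0.155). IRF8 and IRF7, the interferon regulatory factors of these cells, differed by 0.24 and 0.22, and the receptor genes TLR7 and TLR9 by 0.10 and -0.09, and none of these passed.

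The label of the line as plasmacytoid dendritic was set beside markers of other cells in untreated cultures. Of 6 markers chosen to define these cells, CLEC4C, IL3RA, NRP1, TCF4 and SPIB were detected on all 3 untreated arrays and LILRA4 was not. Of 15 markers of monocytes and conventional dendritic cells 9 were detected on all 3 untreated arrays, some with bright signals. CD1C, CSF1R, LYZ, CD14 and CLEC10A had untreated means of 12.46, 11.13, 10.87, 10.60 and 10.19. ITGAM, FCGR3A, ITGAX and S100A9 were the dimmer ones detected. FCN1, S100A8, CLEC9A, XCR1, MPO and CD163 were undetected on every array. Of T and NK cell markers 4 of 15 were detected, CD6 and CD5 the brightest, and NKG7 and CD3G with dimmer signals. CD3D, CD3E, LCK and GNLY were among those undetected. Of 9 B cell markers 4 were detected on all 3 untreated arrays, CD79B the brightest, and VPREB1, CD79A and FCER2 with dimmer signals. CD22 and PAX5 were among those undetected. Of 6 red cell and platelet markers none was detected on all 3 untreated arrays. Over all genes with a symbol 42.4% were detected on all 3 untreated arrays. The share was 60% for the monocyte and conventional dendritic cell list, 44.4% for the B cell list and 26.7% for the T and NK cell list. Few genes of these lists could be tested, 4 of the T and NK cell list, 4 of the B cell list, 9 of the monocyte and conventional dendritic cell list and 0 of the red cell and platelet list, and none of those tested passed, beside 5.23% of all tested genes. Summed raw signals of the monocyte and conventional dendritic cell list were 11891 to 14617 on ODN2006 arrays and 13823 to 15106 on untreated arrays. Over all genes with a symbol the sums were 9008243 to 9415393 and 8346888 to 9347577. These sums are not normalized and include background, and no difference between them was tested. The part of other cell types in the identity signals was not tested.

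**Figure D4:**
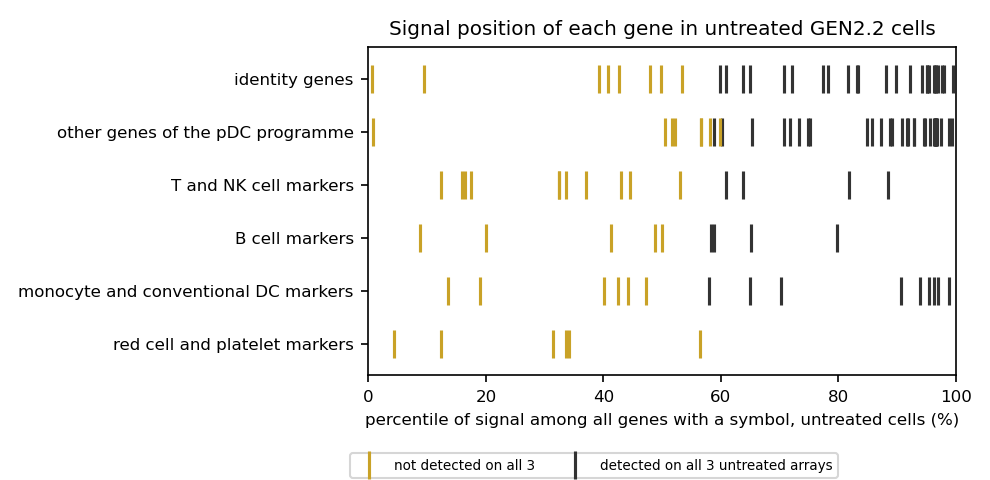
Percentile of the untreated mean signal among 20041 genes (horizontal axis, in percent) for each gene of the identity set, of the other programme genes (pDC stands for plasmacytoid dendritic cell, DC for dendritic cell) and of 4 marker lists of other cells; dark ticks are detected on all 3 untreated arrays and yellow ticks are not. Identity genes crowd at the right, with 19 of 33 in the top 25%. So do the other programme genes, with 23 of 38, among them ID2, which opposes the programme. Of the 15 monocyte and conventional dendritic cell markers 9 are dark and 6 are yellow. This list also reaches the right, with 6 of 15 in the top 25%, and these 6 are in the top 10% as well. Of the 33 identity genes 12 are in the top 10%.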

How the data were processed

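RNA of 3 ODN2006-treated and 3 untreated samples of GEN2.2 cells was hybridised to bead arrays (Illumina HumanHT-12 v4). The deposited table holds a non-normalized signal intensity, on a linear scale, and a detection p-value for each of 47218 probes, per the file headers. The log2 values also deposited were made with limma according to the submitters' processing notes, in steps that are not given in the sources used here. On ODN2006 arrays their median is 4.59 and their minimum -1.57, on untreated arrays 4.67 and 4.19. How each group was processed before deposit was not tested, and the deposited values served as an alternative only.

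Intensities were background-corrected with normexp (negative controls inferred from the detection p-values, offset 16) and quantile-normalized together (neqc, limma 3.58.1, R 4.3.3). The 13816 probes with a detection p-value under 0.01 on every array of either group were tested, with lmFit and eBayes, two-sided, and Benjamini-Hochberg adjustment over these probes. Of all probes 30107 had 1 symbol, 8 had several and 17103 had none in the platform table; 30068 symbols were brought up to date by gene ID from RefSeq (GRCh38.p14). The script was checked on simulated data. Promoter windows were searched in Python 3.11.15.

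The titles number the replicates. Once group means were removed, arrays sharing a number correlated at 0.41, 0.35 and 0.46 and arrays of unlike number at -0.35 to -0.11. Deviations from a group mean cancel out, so the negative values follow from the positive ones and are no further evidence. The labels do not say that arrays sharing a number were paired, so that reading rests on these correlations. A fit blocked on replicate number is an alternative. The others were no filter, a stricter filter, median scaling, no background correction, array weights, the deposited log2 values, a trended robust prior, the mean of the tested probes of a gene, another detection threshold, any probe of a gene, and leaving out each array. Members and lists were chosen with earlier results of these data known, so no list test was made. All members are accounted for. Values on each array are given for classical markers, the brightest member of each role and members detected on some arrays only, and, chosen after their values were seen, for NRP1, MZB1, CCDC50, PLD4, UGCG and second probes. Of the other lists, called genes, key regulators and a few bright or absent markers, these last also chosen after their values were seen, are named.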

Additional observations from a re-analysis of the deposited data

How the results depend on the processing

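The count of members that fell, 0, became 1 with the replicate block (NRP1) and 1 with the mean of the tested probes of a gene (MZB1), and stayed at 0 under the other settings with all arrays. The count that rose stayed at 0 under all of these. Without 1 array both counts were 0, that is 0 to 0, and with the block as well, an alternative chosen after the data were seen, each ran from 0 to 1 (NRP1 lower and PLD4 higher, in the fits without a replicate 2 array; the blocked call of NRP1 was lost in the other 4). The median difference of the members ran from -0.14 to -0.07 without 1 array and from -0.12 to -0.05 under the other settings. Between 25 and 26 members were detected in untreated cells, and 25 on ODN2006 arrays, under either detection threshold and with any probe; without a filter all 33 were tested. Of 37 named genes and second probes, none of those called changed direction under any alternative, and 9 uncalled ones did in some fit. Leaving out 1 array, which leaves fewer samples, ended 10 calls among 222 values and added none. The other unblocked or blocked settings with all arrays ended 5 calls and added 6 among 329; of these the replicate block added NRP1, the second CCDC50 probe and RNASE6, and changed no other call. The cause of the other changes was not tested, except that keeping dim probes adds tests. Signal over background limits the 8 untested members, detected on no array or on 1 ODN2006 array, for which a change below the detection limit would not be seen.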
